A study of Homo sapiens with 8 samples.

Results

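The enzymes that build purine and pyrimidine nucleotides from small precursors were examined in SQ20B cells kept in normoxia or in hypoxia. The set held 10 genes, taken by name: PPAT, GART, PFAS, PAICS, ADSL and ATIC of the purine branch, and CAD, DHODH, UMPS and CTPS1 of the pyrimidine branch. All 10 were found among the 14528 named genes of the expression table, through 17 of its 24812 transcripts. SQ20B is an established human cell line of head and neck squamous cell carcinoma. Poly(A)-selected RNA of 8 libraries was sequenced, 4 from normoxia and 4 from hypoxia (0.5% oxygen for 16 h in a hypoxia chamber), so the data describe 1 cell line, 1 oxygen level and 1 time point.

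For each transcript the table gave 1 FPKM value per condition (fragments scaled to transcript length and library size), formed by the authors over the 4 replicates. Values of single replicates and the depth of single libraries were not analysed here. Every value below is therefore the authors' pooled value, without a spread between replicates and without a test, and differences are described by their size. Changes are given as log2((hypoxia FPKM + 0.1)/(normoxia FPKM + 0.1)), with FPKM summed over the listed transcripts of a gene. The added 0.1 understates the change of genes with low FPKM. A gene was counted as lower or higher when its change reached 1.5-fold, and the background was the 12106 genes whose FPKM averaged 0.5 or more.

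The labelled cell type and treatment were checked first. Of 8 squamous epithelial markers, 7 were listed and all 7 were above the limit, among them KRT5, a basal keratin (398 FPKM in normoxia and 442 in hypoxia), and TP63, the transcription factor of squamous lineages (42.8 and 44.6). The stress keratin KRT6A was at least 1.5-fold lower (5.10 and 3.26 FPKM, log2 change -0.63), the desmosomal DSG3 had a log2 change of -0.36 and SFN had -0.21, while KRT17 had 0.16 and CDH1 had 0.43. KRT14 was not analysed here. Of 8 markers of leukocytes, endothelium, fibroblasts and hepatocytes, only CD68 had a value, 2.36 FPKM in normoxia and 2.86 in hypoxia, and the other 7 were not analysed here. The 6 hypoxia response genes taken as a check were all at least 1.5-fold higher in hypoxia, with log2 changes from 1.02 for VEGFA to 5.58 for NDRG1. The FPKM values of the named genes summed to 532814 in normoxia and 455746 in hypoxia. Scaling the columns to equal sums adds 0.23 to nearly every log2 change and moves the median over all genes from -0.07 to 0.15. The changes of the 10 genes, and the counts and medians of the lists of related genes below, are therefore given on both scales. Other values are on the deposited scale unless the equal-sums scale is named. The 100 most abundant genes, none of them among the 10, carried 36.9% of the fall in the sum. They held 173030 of the 532814 FPKM in normoxia and 144608 of the 455746 FPKM in hypoxia.

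Purine rings are assembled on a ribose phosphate taken from phosphoribosyl pyrophosphate (PRPP), with nitrogen from glutamine, glycine and aspartate and with carbon from formyl-tetrahydrofolate and carbon dioxide, until inosine monophosphate (IMP) is formed. Pyrimidine rings are built first, from glutamine, bicarbonate and aspartate, and only then joined to PRPP to give uridine monophosphate, from which cytidine nucleotides are made. Several of the enzymes are multifunctional proteins, and DHODH sits in the inner mitochondrial membrane, where it passes electrons to ubiquinone and so depends on the respiratory chain. Proliferating cells lean on these routes for RNA and DNA, and MYC is known to bind and activate many of the genes.

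All 10 genes were lower in hypoxia on the deposited scale (8 after scaling to equal sums, PAICS and CAD excepted). On the deposited scale 6 of them were at least 1.5-fold lower: PPAT, GART, ADSL, DHODH, UMPS and CTPS1. None was at least 1.5-fold higher. Among all genes, 11.2% were at least 1.5-fold lower, 9.95% were at least 1.5-fold higher and 56.4% were lower by any amount. The median log2 change of the 10 genes was -0.67, beside -0.07 over all genes. On the deposited scale the 10 changes fell into a group of 6, from -0.998 to -0.66, and a group of 4, from -0.30 to -0.19 (ATIC, PFAS, PAICS and CAD). The gap was 0.36 between GART and ATIC and 0.0094 to 0.12 elsewhere in the order. After quantile normalization GART lay at -0.45 and ATIC at -0.26, and the widest gap was between CAD (-0.21) and PAICS (0.058), so the split depended on the scaling. After scaling to equal sums, 8 of the 10 remained below 0, beside 36.3% of all genes, and PAICS (0.030) and CAD (0.035) were slightly above it. ADSL and DHODH were the only members still at least 1.5-fold lower, beside 4.96% of all genes. By the same limit 2202 of the 12106 genes were higher on that scale. On that scale UMPS lay at -0.583, just short of the limit.

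**Figure D1:**
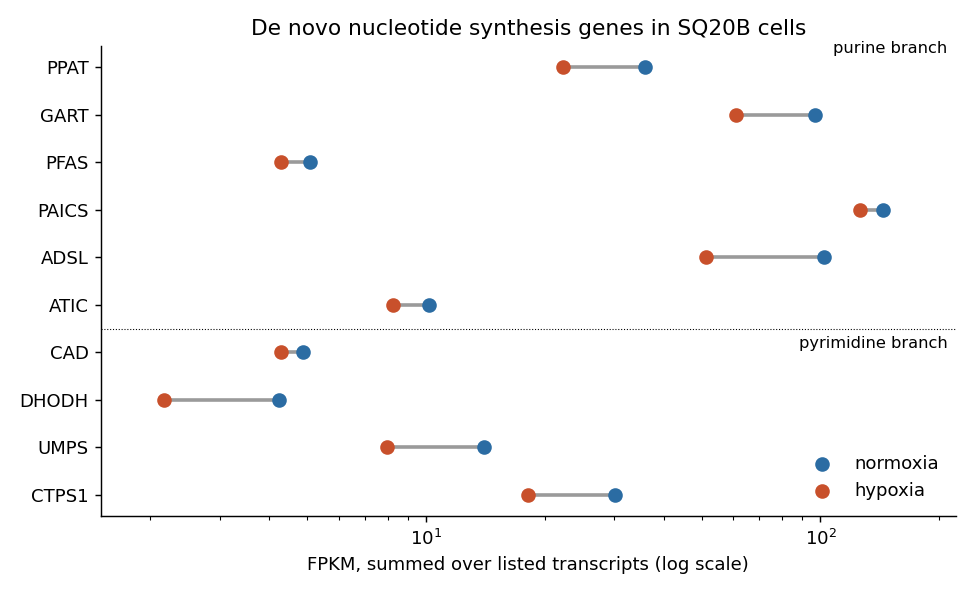
FPKM of the 10 genes in normoxia (blue) and hypoxia (orange), summed over listed transcripts, on a logarithmic axis, with the purine branch above the dotted line and the pyrimidine branch below it. Each point is the authors' pooled value of 1 condition, and the orange point lies to the left of the blue point in every row, from 1.998-fold lower for ADSL to 1.14-fold lower for CAD, though PAICS and CAD were not lower after scaling to equal sums.

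The first committed step of purine synthesis is carried out by PPAT, the amidotransferase that places an amino group from glutamine on PRPP and is inhibited by the end products AMP and GMP. PPAT (NM_002703) lies on chromosome 4 of hg19 (57259529 to 57301802, minus strand). Its level was 35.8 FPKM in normoxia and 22.2 FPKM in hypoxia, which was 1.61-fold lower (log2 change -0.68 as deposited and -0.46 after scaling to equal sums), and 7.78% of all genes had a lower change. PAICS, the bifunctional enzyme that carries out carboxylation and the addition of aspartate, lies head to head with it on the plus strand (57301915 to 57327534). PAICS was the most abundant of the 10, with 144 FPKM in normoxia and 126 FPKM in hypoxia, a log2 change of -0.20 on the deposited scale that became 0.030 after scaling to equal sums and 0.058 after quantile normalization. The neighbours thus differed in level and in the size of their change. PAICS had 4.02 times the FPKM of PPAT in normoxia and 5.65 times in hypoxia.

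The listed PPAT and PAICS loci are 112 bases apart in hg19. The part of this stretch that lies outside every annotated transcript of both genes is shown because the pair shares it as the start region for transcription in both directions while the levels on its sides differ. It is given as the plus strand of chr4:57301803-57301906 (hg19), so that PPAT reads away to the left and PAICS to the right, and the capitals mark its only match to GCGTG or ACGTG on either strand.
PPAT and PAICS interval: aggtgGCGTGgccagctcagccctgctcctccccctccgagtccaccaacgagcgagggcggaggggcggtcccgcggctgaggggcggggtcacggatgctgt
The 104 bases had a G and C content of 74.0% and held 10 CG pairs. They held no CACGTG, the E-box that MYC and MAX are known to bind.

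A wider search used the RefSeq promoter windows of GRCh38.p14, which run from 250 bases before to 50 bases after a gene's start and were given for 9 of the 10 genes in 14 windows. ADSL had no window there. CACGTG, which reads the same on both strands, was found for 4 genes, ATIC, DHODH, PAICS and PPAT, while 8.77% of all 27305 genes with a window, and 7.26% of all 35116 windows, held it. The match of PPAT and that of PAICS were the same 6 bases, 182 bases before the start of PPAT and 40 bases after a start of PAICS. The surrounding 30 bases are shown for the 3 sites that lie before a start, each on the strand of its gene, with the E-box in capitals.
ATIC, chr2:215312001-215312030, plus strand, E-box 46 bases before the start: gggccggcgggcCACGTGataagcccggaa
DHODH, chr16:72008573-72008602, plus strand, E-box 159 bases before the start: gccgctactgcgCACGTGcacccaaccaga
PPAT, chr4:56435780-56435809, minus strand, E-box 182 bases before the start: aacggagatttcCACGTGcagcaaatacag
ATIC held a second match 29 bases after its start. The 4 genes with a match spanned log2 changes from -0.93 for DHODH to -0.20 for PAICS, and the 5 without (CAD, CTPS1, GART, PFAS and UMPS) spanned -0.81 for UMPS to -0.19 for CAD, so the ranges overlapped. The core of the hypoxia response element, ACGTG or GCGTG on either strand, overlaps the E-box. It was found for 8 of the 9 genes, UMPS being the exception, and for 52.4% of all genes with a window. Counted by window, it was in 8 of the 14 windows of these genes, beside 48.4% of all 35116 windows. These matches describe letters in the windows, and binding was not measured.

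GART joins 3 activities of the purine branch in 1 protein, and uses formyl-tetrahydrofolate in one of them. It lies on chromosome 21 (34876238 to 34915198, minus strand), and its summed level was 96.7 FPKM in normoxia and 61.0 FPKM in hypoxia, a log2 change of -0.66 that became -0.44 after scaling to equal sums. PFAS (NM_012393), the synthase that acts between the steps of GART and uses glutamine, lies on chromosome 17 (8152596 to 8173809). Its level was far below that of GART, 5.07 FPKM in normoxia and 4.29 FPKM in hypoxia, with a log2 change of -0.24 that became -0.015 after scaling to equal sums. GART had 19.1 times the FPKM of PFAS in normoxia and 14.2 times in hypoxia.

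ADSL showed the lowest change of the 10. This lyase releases fumarate at a late step before IMP and again in the step from IMP to AMP. ADSL lies on chromosome 22 (40742504 to 40762575), and its summed level was 102 FPKM in normoxia and 51.1 FPKM in hypoxia, a log2 change of -0.998 on the deposited scale and -0.77 after scaling to equal sums. Only 2.63% of all genes had a lower change. At 1.998-fold lower it stayed just short of a 2-fold limit, so that none of the 10 genes reached it, beside 2.62% of all genes. ATIC (NM_004044), the bifunctional enzyme of the last steps to IMP and the other user of formyl-tetrahydrofolate, lies on chromosome 2 (216176679 to 216214496). Its level was 10.2 FPKM in normoxia and 8.24 FPKM in hypoxia, a log2 change of -0.30 that became -0.078 after scaling to equal sums. The ratio of ADSL to ATIC went from 10.1 in normoxia to 6.21 in hypoxia.

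In the pyrimidine branch the first enzyme differed from the others. CAD (NM_004341), which joins the carbamoyl phosphate synthetase, aspartate transcarbamylase and dihydroorotase activities in 1 protein, lies on chromosome 2 (27440258 to 27466654). Its level was 4.88 FPKM in normoxia and 4.28 FPKM in hypoxia, a log2 change of -0.19 that became 0.035 after scaling to equal sums. Of all genes, 39.6% had a lower change than CAD. DHODH (NM_001361), on chromosome 16 (72042643 to 72059316), oxidizes dihydroorotate to orotate. It was the least abundant of the 10, with 4.23 FPKM in normoxia and 2.17 FPKM in hypoxia, which was 1.91-fold lower (log2 change -0.93 as deposited and -0.71 after scaling to equal sums), and 3.31% of all genes had a lower change.

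UMPS, which turns orotate into uridine monophosphate with PRPP, lies on chromosome 3 (124449213 to 124468119). Its summed level was 14.01 FPKM in normoxia and 7.97 FPKM in hypoxia, a log2 change of -0.81 (-0.583 after scaling to equal sums). CTPS1 (NM_001905), the synthetase that converts UTP to CTP with glutamine, lies on chromosome 1 (41445007 to 41478235). Its level was 30.1 FPKM in normoxia and 18.2 FPKM in hypoxia, a log2 change of -0.73 (-0.50 after scaling to equal sums). DHODH, UMPS and CTPS1 were thus each at least 1.65-fold lower, and CAD was 1.14-fold lower. Summed over the 4 genes, the pyrimidine branch had 53.2 FPKM in normoxia and 32.6 FPKM in hypoxia, and the 6 purine genes had 394 and 273 FPKM. The median log2 change was -0.77 for the pyrimidine branch and -0.48 for the purine branch on the deposited scale, with 3 genes of each at least 1.5-fold lower. On the equal-sums scale the medians were -0.54 and -0.26, with 1 gene of each at least 1.5-fold lower. With 4 and 6 genes and overlapping ranges (-0.93 to -0.19 and -0.998 to -0.20), the branches are given side by side only.

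**Figure D2:**
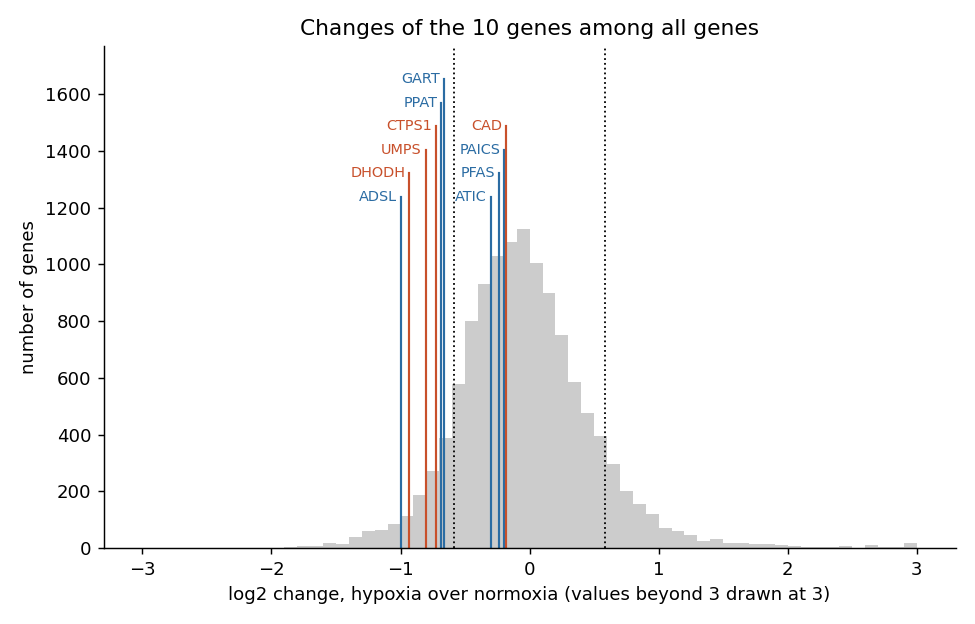
Histogram of the log2 change of the 12106 genes averaging 0.5 FPKM or more (grey, number of genes per 0.1 log2 units, values beyond 3 drawn at 3), with vertical lines at the purine genes (blue) and the pyrimidine genes (orange) and dotted lines at 1.5-fold. Lines of 6 members lie left of the lower dotted line, from ADSL at -0.998 to GART at -0.66, and those of ATIC, PFAS, PAICS and CAD lie between the dotted lines, PAICS and CAD changing sign after scaling to equal sums.

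Levels also bore on the background, since the genes spanned a wide range of abundance. Their mean FPKM went from 3.20 for DHODH to 135 for PAICS, and 6 of them lay above the median gene (9.23 FPKM). Among genes averaging 10 FPKM or more, the median log2 change was -0.18 and 13.1% were at least 1.5-fold lower. Of the 6 members in that range, PPAT, GART, PAICS, ADSL, UMPS and CTPS1, 5 were at least 1.5-fold lower, PAICS being the exception. Within one bulk lysate, fewer transcribing cells and less RNA per cell cannot be told apart.

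Of the 17 transcripts, 15 averaged 0.5 FPKM or more. On the deposited scale 14 of these were lower in hypoxia and 1 was higher, and 8 were at least 1.5-fold lower, beside 14.3% of all 18190 transcripts above that limit. The share of all transcripts lower by any amount was not computed. After scaling to equal sums 4 were at least 1.5-fold lower (GART NM_175085, both ADSL transcripts and that of DHODH), beside 7.07% of all transcripts. ADSL NM_001123378 (1.09 and 0.324 FPKM) and UMPS NR_033437 (0.813 and 0.444 FPKM) averaged past 0.5 FPKM only through normoxia. Their place among the 8 thus rests on the value that let them in, as does that of the ADSL transcript among the 4. Each of 6 genes had 1 listed transcript, and GART, PAICS, ADSL and UMPS had more than 1. FPKM values of overlapping transcripts rest on how Cufflinks divided shared reads, and the reads themselves were not analysed here.

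The 2 main GART transcripts differed in size of change. NM_000819, which encodes the full protein with 3 activities, was at 64.0 FPKM in normoxia and 43.4 FPKM in hypoxia, a log2 change of -0.56 (-0.33 after scaling to equal sums). NM_175085, which encodes a short protein with only the glycinamide ribonucleotide synthetase activity, was at 30.1 FPKM in normoxia and 15.7 FPKM in hypoxia, a log2 change of -0.94 (-0.71 after scaling to equal sums). The share of the short form in the summed GART FPKM was 31.2% in normoxia and 25.7% in hypoxia. The remaining transcripts were minor, NM_001136005 with log2 change -0.50 and NM_001136006 at 0.481 and 0.487 FPKM.

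The PAICS transcripts had opposite signs on the deposited scale. NM_001079524 made up 87.7% of the PAICS FPKM in normoxia and was at 126 FPKM in normoxia and 105 FPKM in hypoxia, a log2 change of -0.27. NM_006452 was at 17.7 FPKM in normoxia and 20.9 FPKM in hypoxia, a log2 change of 0.24, and its share went from 12.3% to 16.6%. It was the only member transcript above 0.5 FPKM that was higher in hypoxia. On the equal-sums scale the changes were -0.04 and 0.47.

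ADSL was carried by NM_000026, which was at 101 FPKM in normoxia and 50.8 FPKM in hypoxia and made up 98.9% and 99.4% of the summed level. NM_001123378 was at 1.09 FPKM in normoxia and 0.324 FPKM in hypoxia, a log2 change of -1.49. UMPS was carried by the coding transcript NM_000373, with 13.0 and 7.45 FPKM (log2 change -0.79, or -0.57 after scaling to equal sums). The noncoding UMPS transcripts NR_033437 (0.813 and 0.444 FPKM) and NR_033434 (0.199 and 0.0702 FPKM) were lower in hypoxia too. Taking only the most abundant transcript of each gene kept 5 members at least 1.5-fold lower, since GART then lay at -0.56. Among all genes, 1415 were lower by that limit under the same rule.

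**Figure D3:**
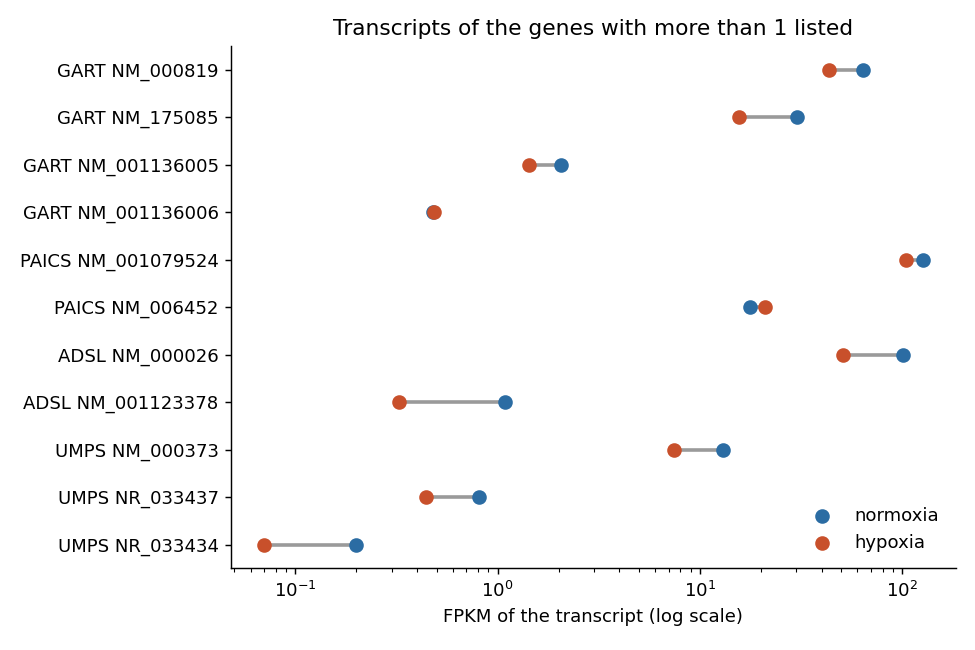
FPKM of the 11 transcripts of GART, PAICS, ADSL and UMPS in normoxia (blue) and hypoxia (orange) on a logarithmic axis, each point being the authors' pooled value. Of the transcripts above 0.5 FPKM, only PAICS NM_006452 has its orange point to the right of the blue one.

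The genes that supply PRPP stayed nearer to the median gene than most of the 10. PRPS1 and PRPS2 make PRPP from ribose phosphate, and PRPSAP1 and PRPSAP2 are their associated proteins. None of the 4 reached 1.5-fold on either scale, and their median was -0.14 as deposited and 0.081 after scaling to equal sums. PRPS1 had 38.5 FPKM in normoxia and 29.3 FPKM in hypoxia (log2 change -0.39), PRPS2 had 102 and 94.2 FPKM (-0.11), PRPSAP1 had 11.7 and 10.9 FPKM (-0.10) and PRPSAP2 had 72.1 and 64.0 FPKM (-0.17). After scaling to equal sums only PRPS1 remained below 0.

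The genes of the steps after IMP were lower too, though none reached 1.5-fold. IMPDH1 and IMPDH2, the dehydrogenases that open the route to GMP, had log2 changes of -0.52 (9.79 to 6.79 FPKM) and -0.54 (200 to 137 FPKM). GMPS, which completes GMP, had -0.42 (92.1 to 68.7 FPKM), and ADSS2, which starts the route to AMP, had -0.41 (73.3 to 55.2 FPKM). The muscle form ADSS1 lay below the limit, at 0.277 and 0.368 FPKM. The median of the 4 expressed genes was -0.47 on the deposited scale and -0.25 after scaling to equal sums, and all 4 stayed below 0 on both.

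Beyond UMP, the list of pyrimidine companions held 6 genes above the limit, none at least 1.5-fold lower and 1 higher on either scale. Among all genes 11.2% were lower and 9.95% higher by that limit as deposited. The median of the list was -0.28 and became -0.053 after scaling to equal sums. CTPS2, the second CTP synthetase, was at 15.8 FPKM in normoxia and 13.1 FPKM in hypoxia, a log2 change of -0.27, so that the ratio of CTPS1 to CTPS2 went from 1.90 to 1.38. The gene that was higher was TYMS, the thymidylate synthase, with 41.1 FPKM in normoxia and 91.8 FPKM in hypoxia, a log2 change of 1.16. TYMS shares its listed locus with ENOSF1, a gene known to lie antisense to it, which was at 17.8 FPKM in both conditions. The libraries were stranded, but the strand setting of the quantification was not given in the sources used here, so the division of reads between TYMS and ENOSF1 is uncertain. DCTD, the dCMP deaminase, had a log2 change of -0.44 and CMPK2, a mitochondrial UMP and CMP kinase, had -0.30. Among 14 nucleotide kinases 3 were at least 1.5-fold lower and 1 was higher, beside 11.2% and 9.95% of all genes, with a median of -0.30. With equal sums, 2 were lower (NME1 and NME6) and 3 were higher, beside 601 lower and 2202 higher of all 12106 genes, with a median of -0.082. NME1, a nucleoside diphosphate kinase, had 344 FPKM in normoxia and 147 FPKM in hypoxia (-1.23), in a locus it shares with the similar gene NME2, so that the division of reads between them is uncertain. NME6 had a log2 change of -0.93, and the adenylate kinases AK7 and AK9 had 1.34 and 0.47.

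Formyl-tetrahydrofolate is the carbon donor for GART and ATIC. Of 13 genes of its supply, 3 were at least 1.5-fold lower and none was higher, beside 11.2% and 9.95% of all genes. After scaling to equal sums 2 were still lower (SLC25A32 and FPGS), beside 4.96% of all genes. The median was -0.22 as deposited and -0.0086 on that scale. SLC25A32, which carries folate into mitochondria, was at 41.4 FPKM in normoxia and 16.6 FPKM in hypoxia, a log2 change of -1.32, which is beyond that of any of the 10 synthesis genes, as was its equal-sums change of -1.09. FPGS, which retains folates in the cell by adding glutamates, had a log2 change of -0.89. The highest changes of the list were those of ALDH1L1 (0.23) and ALDH1L2 (0.16), formyl-tetrahydrofolate dehydrogenases. Among 10 genes of serine, glutamine and aspartate supply, 3 were lower and 1 was higher by that limit, beside 11.2% and 9.95% of all genes. The median of these 10 was -0.27. With equal sums, none was lower and 2 were higher, PHGDH and SLC1A5, with a median of -0.040. On that scale 2202 of all 12106 genes were higher. SLC25A12, a mitochondrial aspartate and glutamate carrier, had a log2 change of -0.74 (-0.52 after scaling to equal sums), and GOT2, the mitochondrial aspartate aminotransferase, had -0.64 (-0.42). PHGDH, the first enzyme of serine synthesis, had 0.59 (16.4 to 24.8 FPKM), and the glutamine transporter SLC1A5 had 0.47.

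The salvage list, which recovers bases and nucleosides in place of new synthesis, showed no common direction. Of 15 genes, 2 were at least 1.5-fold lower, 2 were higher and 11 reached neither. Among all genes 11.2% were lower and 9.95% higher by that limit, and the median of the list was -0.21. After scaling to equal sums none was lower and 3 were higher, beside 601 lower and 2202 higher of all 12106 genes, and the median was 0.0071. CDA, the cytidine deaminase, was at 7.01 FPKM in normoxia and 16.0 FPKM in hypoxia (log2 change 1.18), and UPRT, related to uracil phosphoribosyltransferases, had 0.61. PNP, the purine nucleoside phosphorylase, had -0.79 (-0.57 after scaling to equal sums), and UCK2, the uridine and cytidine kinase, had -0.72 (-0.49). HPRT1, which competes with PPAT for PRPP when it salvages hypoxanthine and guanine, was picked after its values were seen. It was at 29.2 FPKM in normoxia and 34.8 FPKM in hypoxia (log2 change 0.25), so that its ratio to PPAT went from 0.815 to 1.56.

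**Figure D4:**
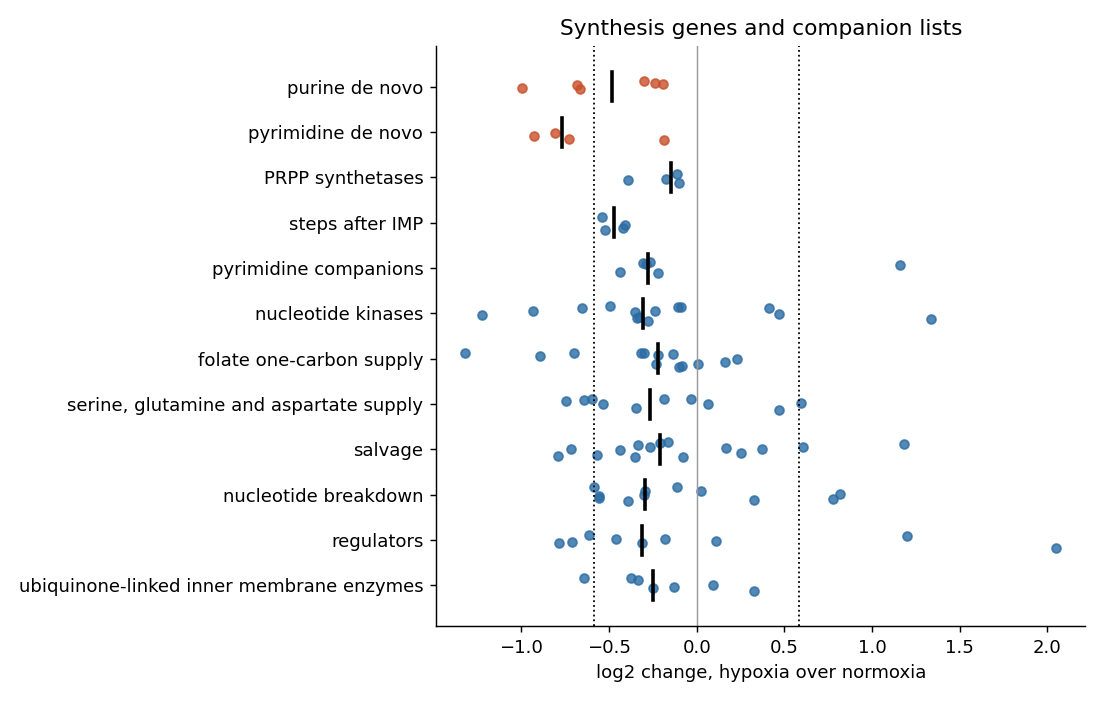
Log2 change of each gene averaging 0.5 FPKM or more in the synthesis branches (orange) and the companion lists (blue), with a black bar at the median of each list, a grey line at 0 and dotted lines at 1.5-fold. The medians of the purine (-0.48) and pyrimidine (-0.77) branches and of the steps after IMP (-0.47) lie furthest to the left, and that of the salvage list is at -0.21, all on the deposited scale.

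Genes known to act on this pathway were described in the same way. Of 9 expressed regulators, 3 were at least 1.5-fold lower and 2 were higher, beside 11.2% and 9.95% of all genes, with a median of -0.31. After scaling to equal sums none was lower and the same 2, MXI1 and MXD1, were higher, with a median of -0.087 (-0.036 as deposited with no filter on low values). On the equal-sums scale 2202 of all 12106 genes were higher. MYC was at 23.8 FPKM in normoxia and 14.5 FPKM in hypoxia (log2 change -0.71, or -0.48 after scaling to equal sums), and ATF4, the stress-response factor known to induce serine and folate genes, was at 330 and 191 FPKM (-0.79, or -0.56). MXI1 and MXD1, which compete with MYC for MAX and repress transcription, were higher, MXI1 with 12.01 and 50.01 FPKM (2.05) and MXD1 with 3.30 and 7.69 FPKM (1.197). Whether these levels bear on the synthesis genes was not tested.

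**Figure D5:**
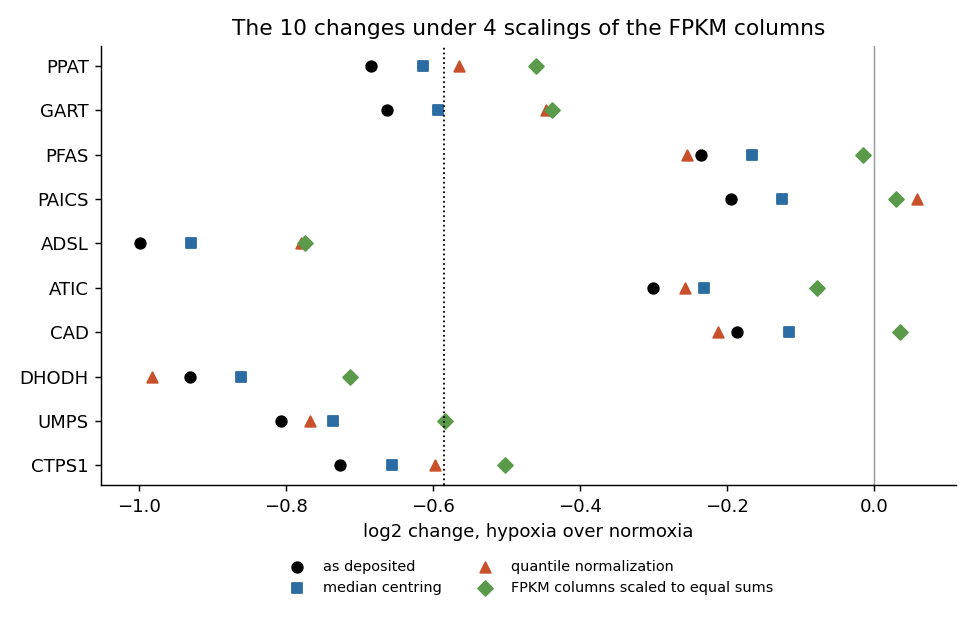
Log2 change of the 10 genes with the FPKM columns as deposited (black circles), after median centring (blue squares), after quantile normalization (orange triangles) and after scaling to equal sums (green diamonds), with a grey line at 0 and a dotted line at 1.5-fold lower. ADSL and DHODH lie left of the dotted line under all 4, and only PAICS and CAD have a point right of 0.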

How the data were processed

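SQ20B cells in normoxia and in hypoxia were sequenced with 4 replicates each. Groups were taken from the sample labels. The normoxia samples carry the hypoxia treatment text as well, and were grouped by their source label. Per the submitters' processing notes and the study's methods, reads were aligned with STAR 2.3.0.1 to hg19 and quantified with Cufflinks 2.1.1 at standard parameters with RefSeq annotation. The FPKM values were deposited by the authors as 1 value per condition and transcript. The remaining columns hold the authors' own comparison (a log2 fold change, a test statistic, a p-value and a q-value) and were not used. Counts were not used here, so the depth of each single library is unknown (the study states a target and an average over samples), and no interval or detection floor is given. 

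Transcripts were paired with gene symbols through RefSeq identifiers of assembly GRCh38.p14 (24293 of 24812, 97.9%), and FPKM was summed per gene. No coordinates were used from that pairing. Loci are those of the deposited table (hg19) counted from 1: adding 1 to the listed start matched a GENCODE transcript start on GRCh37 for 5320 of 12882 loci, and the start as listed for 637. The interval between PPAT and PAICS was read from GRCh37, and promoter windows are those of RefSeq on GRCh38.p14.

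No test was run, since each condition has 1 value. A planned limma fit needs single replicates. Changes used a pseudocount of 0.1, a mean FPKM limit of 0.5 and a 1.5-fold limit. The calculation was tested on simulated data. The genes and lists were chosen with earlier results of these data known. Genes named are all members, all genes for PRPP synthesis and the steps after IMP, the 2 largest changes each way in each other list, and the markers, with exceptions stated. Alternatives were other pseudocounts, limits, folds and scalings, and the most abundant transcript. Equal-sums values of single transcripts were added after the data were seen. Python 3.11.15, numpy 2.4.6, pandas 2.3.3 and matplotlib 3.10.9 were used.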

Additional observations from a re-analysis of the deposited data

How the results depend on the processing

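No paired analysis was possible because each condition has 1 pooled value, and leaving out replicates could not be run for the same reason. Scaling the FPKM columns to equal sums moved the median log2 change of the 10 genes to -0.45, the number of them at least 1.5-fold lower from 6 to 2, and that of all genes from 1361 to 601, with 2202 genes higher in place of 1204, so that 21.4% rather than 53.1% of the genes past 1.5-fold were lower. On that scale PAICS (0.030), CAD (0.035, also its transcript NM_004341) and the medians of the PRPP synthetases (0.081) and of the salvage list (0.0071) turned positive. Quantile normalization turned PAICS to 0.058 and left 4 members at least 1.5-fold lower, beside 1173 of the 12106 genes. Median centring left all 6 past the limit, beside 1060 of the 12106 genes, and 41.4% of the genes past it in either direction were lower. A fold limit of 1.2 gave 3990 lower genes of the 12106, with 7 members among them, and a fold limit of 2 gave 317 lower genes and 0 members. A mean FPKM of at least 10 gave 762 lower genes. With a pseudocount of 1 or 0.01, or with the most abundant transcript alone, all 10 members kept their sign and moved by less than 1.5 times, and GART (-0.56) alone crossed the limit, with the most abundant transcript.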

Other observations

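DHODH hands its electrons to ubiquinone, as do other enzymes of the inner mitochondrial membrane. Of 7 such genes above 0.5 FPKM, 1 was at least 1.5-fold lower on the deposited scale and none was higher, beside 11.2% and 9.95% of all genes. This was SDHB, the iron-sulfur subunit of succinate dehydrogenase, with 216 FPKM in normoxia and 138 FPKM in hypoxia (log2 change -0.65, or -0.42 after scaling to equal sums). With equal sums none of the 7 reached 1.5-fold, beside 601 lower and 2202 higher of all 12106 genes. SDHD had -0.38, SDHA 0.09 and SDHC 0.32. The median of the 7 genes was -0.25, beside -0.93 for DHODH, and after scaling to equal sums it was -0.027, beside -0.71.

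Genes of nucleotide breakdown lay on both sides of 0. Of 11 above the limit, 1 was at least 1.5-fold lower and 2 were higher, beside 11.2% and 9.95% of all genes. After scaling to equal sums none was lower and the same 2 were higher, beside 601 lower and 2202 higher of all 12106 genes. The lower gene was the 5′-nucleotidase gene NT5C3B (49.4 to 32.9 FPKM, log2 change -0.586, barely past the limit, and -0.36 after scaling to equal sums). The higher genes were AMPD3, an AMP deaminase (1.82 to 3.19 FPKM, 0.78), and UPB1, the last enzyme of pyrimidine breakdown (0.384 to 0.753 FPKM, 0.82). UPB1 averaged past 0.5 FPKM only through hypoxia, so its count as higher rests on the value that let it in. GDA, the guanine deaminase, had -0.56 (51.6 to 35.1 FPKM). The median of the list was -0.30, or -0.072 after scaling to equal sums and -0.11 with no filter on low values.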
